A study of Mus musculus with 18 samples.

Results

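The lysyl oxidase family, Lox and Loxl1 to Loxl4, was followed by gene name through RNA sequencing of mouse embryonic fibroblasts (MEF), a cell type that lays down extracellular matrix in culture. The 5 genes were found among 55450 genes of the deposited table, and all 5 were among the 21161 genes that passed the filter on low counts. There were 18 libraries in 6 groups of 3. Every group was transfected with a plasmid of the pcDNA3 type: the empty vector, a Col1a1-miR-29b vector, in which a rat Col1a1 promoter drives EGFP and a human miR-29b gene, or a CMV-miR-29b vector, in which the CMV promoter takes its place. Both miR-29b vectors also carry a red fluorescent protein, which the empty vector is not described as having. The dose was set in moles of DNA, so the larger Col1a1-miR-29b vector was given at a higher mass than CMV-miR-29b. Each plasmid was tested in cells left without TGF-β and in cells given TGF-β at 20 ng/ml for 24 h, begun 6 h after transfection. The MEF were a purchased stock, and the study calls the libraries repeated experiments without saying which of them were made together, so the p-values measure the spread between these libraries.

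Lysyl oxidases are secreted, copper-dependent enzymes that oxidize lysine and hydroxylysine residues of collagens and elastin, and the aldehydes they make go on to form the crosslinks that stiffen a matrix. Lox, which gives the family its name, and Loxl1, which is tied to elastic fibers, are secreted as proenzymes that Bmp1 and related proteases cleave. Loxl2, Loxl3 and Loxl4 carry scavenger receptor domains instead of a propeptide of that kind, and Loxl2 is known for its action on the type IV collagen of basement membranes. TGF-β, a growth factor that drives fibrosis, is known to raise lysyl oxidase in fibroblasts, and miR-29 is a family of microRNAs known for repressing collagens.

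The mature sequence of miR-29b-3p is shown because it is what both vectors were built to deliver, and those of miR-29a-3p and miR-29c-3p because they share its seed. Sequences are the mouse entries of RefSeq on GRCm38.p6, written 5′ to 3′, with the seed, bases 2 to 8, in capitals.
miR-29b-3p: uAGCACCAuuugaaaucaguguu
miR-29a-3p: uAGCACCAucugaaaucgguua
miR-29c-3p: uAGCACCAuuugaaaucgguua
The reverse complement of that seed, TGGTGCT, was counted on the sense strand of the longest annotated 3′ UTR of each gene in the GENCODE annotation of GRCm38. Loxl2 held 2 matches, Lox 3, Loxl4 1, and Loxl1 and Loxl3 none. Both Loxl2 matches were followed by an A, which makes them matches of 8 bases, and no match of Lox or Loxl4 was. Of 21024 genes with a 3′ UTR, 13.1% held at least 1 match, 2.03% at least 2 and 2.85% a match of 8 bases. The sites of Loxl2 and Loxl4 are shown with the match in capitals, and lie in the 3′ UTR at chr14:69694748-69694754 and chr14:69695110-69695116 on the plus strand for Loxl2 and at chr19:42595021-42595027 on the minus strand for Loxl4.
Loxl2 site 1: cctacaaccccagctcatggaaTGGTGCTa
Loxl2 site 2: ccaacacagatagcattgtgaaTGGTGCTa
Loxl4 site 1: tgtgaccaaggccccctctaagTGGTGCTt
Loxl2 held 2 further matches in the part of its transcript before the 3′ UTR, where the 5′ UTR and coding sequence were not separated. A match is a run of letters and was not tested as a site of binding, and the UTRs differ in length, from 1173 bases in Loxl1 to 3160 in Lox.

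**Figure D1:**
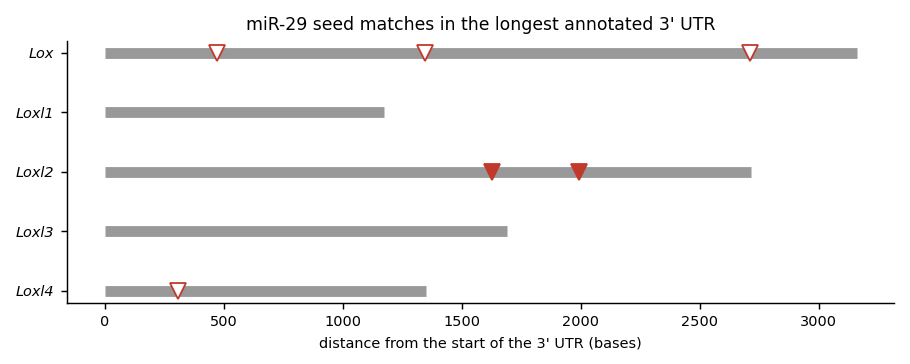
Positions of the 7-base seed match (triangles) along the longest annotated 3′ UTR of each lysyl oxidase gene (grey bars), in bases from the start of the UTR. Filled triangles mark matches followed by an A, which only Loxl2 has, with 2. Lox has 3 open triangles and Loxl4 1.

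The libraries held 65898017 to 80332633 counts. The counts of Mir29b-1, the gene whose product the vectors carry, were 0 in every empty vector library, 0 to 1 with Col1a1-miR-29b, 2 to 6 with Col1a1-miR-29b and TGF-β, 110 to 309 with CMV-miR-29b and 203 to 293 with CMV-miR-29b and TGF-β. These poly(A) libraries do not measure the mature miRNA. Among markers of fibroblasts, Vim had 32733 to 55911 counts and Dcn 146 to 501, but Thy1 had 0 to 8. Summed counts of the 9 fibroblast markers, which include Col1a1 and Col1a2, were 314725 to 350741 in empty vector cells, 497790 to 532032 with TGF-β and 225810 to 265325 with Col1a1-miR-29b. Members of this list moved both ways. In empty vector cells Col1a1 had 74649 to 85753 counts without and 169724 to 182026 with TGF-β. Dcn had 416 to 501 and 161 to 225, and S100a4 8746 to 10039 and 6407 to 8236. The 4 leukocyte markers summed to 948 to 996 and 682 to 906 counts in empty vector cells without and with TGF-β, the 3 endothelial markers to 75 to 106 and 154 to 200, and the 3 smooth muscle markers to 1048 to 1092 and 1263 to 1772. Most of the leukocyte sum was Cd68, at 926 to 934 and 613 to 858, while Ptprc had 4 to 14 and 0 to 25. Of the smooth muscle markers, Acta2 went from 243 to 288 without TGF-β to 714 to 935 with it. Tagln went from 141 to 209 to 216 to 379, but Cnn1 fell, from 591 to 708 to 316 to 458. The part of these shifts in the results for the lysyl oxidase genes was not tested. In such bulk libraries, fewer cells of a type and less RNA per cell cannot be told apart. The third library of each Col1a1-miR-29b group had a column whose letter no sample title has, and it is called the unlettered library below.

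Loxl2 was by far the most abundant of the 5. Levels are given as normalised CPM (counts scaled to the size of each library) per kilobase of exon, so that genes of different length can be compared. On that scale Loxl2 ran from 152 to 209 over the 18 libraries, with a median of 185, and made up 75.9% to 80.6% of the summed level of the family. Loxl4 followed at 25.9 to 31.4, Loxl1 at 7.83 to 10.3, Loxl3 at 5.39 to 7.38 and Lox at 3.33 to 6.65. In counts, this was 59337 to 87909 for Loxl2 and 1147 to 2330 for Lox, so every member was measured well above the filter. The order Loxl2, Loxl4, Loxl1, Loxl3, Lox held without overlap of neighbours in 5 groups. The exception was Loxl3 and Lox in CMV-miR-29b cells with TGF-β, which overlapped at means of 6.17 and 6.23. Ranges of FPKM had the same order, from 138 to 186 for Loxl2 down to 3.26 to 5.98 for Lox, over 16 libraries.

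**Figure D2:**
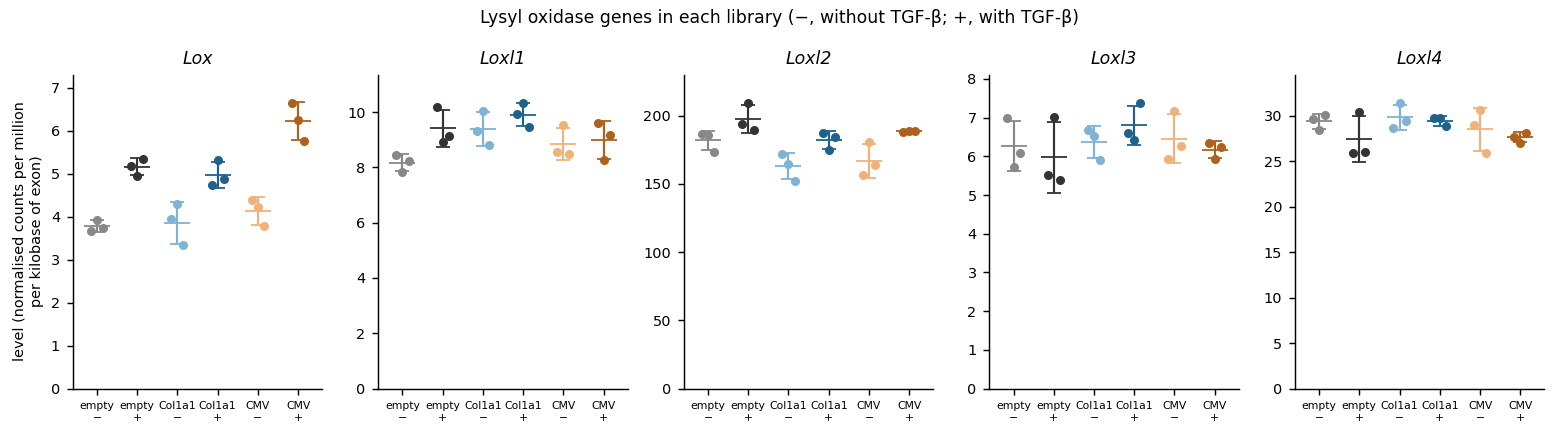
Level of each lysyl oxidase gene in the 18 libraries, in normalised CPM per kilobase of exon, by vector (empty, Col1a1-miR-29b, CMV-miR-29b) without (−) and with (+) TGF-β. Points are libraries, and bars are the mean ± SD of 3. Each panel has its own axis from 0. The Lox points with TGF-β lie above those without it for each vector.

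**Figure D3:**
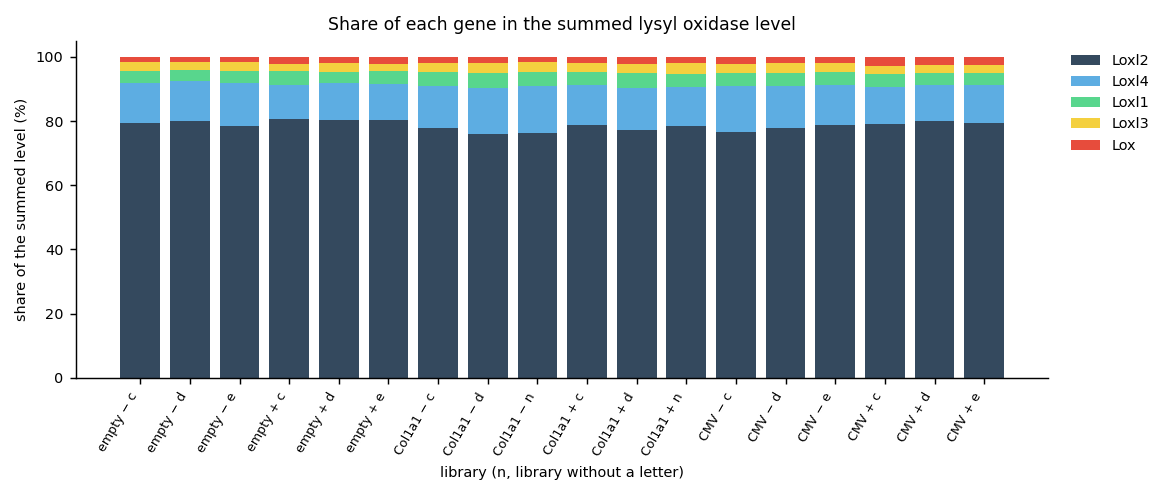
Share of each gene in the summed lysyl oxidase level per library, in percent. Loxl2 takes 75.9% to 80.6% of every bar, and Lox, at the top, 1.56% to 2.78%.

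Lox was the member that rose with TGF-β. Its level in empty vector cells was 3.67, 3.93 and 3.75 without and 5.19, 4.96 and 5.34 with TGF-β, and the groups did not overlap. The rise was 1.37-fold (log2 0.45, SE 0.090, 95% interval 0.26 to 0.64), with an adjusted p of 0.00585 by edgeR's quasi-likelihood test. In these cells 5.88% of tested genes changed with TGF-β, and Lox was the 1 of 5 members that did. The gene lies at chr18:52516067-52529867 on the minus strand of GRCm38. Its level corresponded to 1400 to 1505 counts per library without TGF-β and 1767 to 1861 with it.

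In CMV-miR-29b cells Lox was 4.40, 4.23 and 3.78 without and 6.65, 6.26 and 5.77 with TGF-β. The highest level of Lox over the 18 libraries was in this group. The rise was 1.51-fold (log2 0.59, SE 0.090, adjusted p = 0.000714 by edgeR), against a background of 4.95% of genes changed. In Col1a1-miR-29b cells Lox was 3.95, 4.29 and 3.33 without and 4.74, 5.32 and 4.88 with TGF-β. The lowest of these, and of all 18, was the unlettered library. This rise was 1.29-fold (log2 0.37, SE 0.090, adjusted p = 0.0282 by edgeR), where 4.32% of genes changed. It was the least stable of the responses of Lox to TGF-β. The adjusted p by edgeR was 0.152 and 0.0655 when the unlettered library without or with TGF-β was left out, 0.0792 without library c of the untreated group and 0.138 without library d of the treated group. The log2 change was then 0.27 to 0.38. With both unlettered libraries left out, it was 0.28, with an adjusted p of 0.224 by edgeR. All genes called fell in these fits too. They were 914 of 21161 in the main fit, 630 to 665 with 1 of these libraries left out and 453 of 21858 with both unlettered libraries left out.

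The size of the Lox response was compared between vectors directly. In Col1a1-miR-29b cells the log2 rise was smaller than in empty vector cells by 0.08 (difference -0.08, 95% interval -0.35 to 0.19, adjusted p = 0.99993 by edgeR), and in CMV-miR-29b cells it was larger by 0.14 (interval -0.13 to 0.41, adjusted p = 0.945 by edgeR). Neither difference passed the test. These contrasts share the empty vector libraries.

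Loxl1 did not pass the test for TGF-β with any vector. Its level in empty vector cells was 8.45, 7.83 and 8.23 without and 10.2, 8.90 and 9.14 with TGF-β. These groups did not overlap, yet the log2 difference of 0.20 (SE 0.076) had an adjusted p of 0.160 by edgeR. The levels of Loxl1 overlapped in the other vectors, with log2 differences of 0.08 with Col1a1-miR-29b and 0.02 for CMV-miR-29b. Loxl1 lies at chr9:58287738-58313186 on the minus strand.

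Loxl2 was slightly higher in every library with TGF-β than in every library of the same vector without it, but no difference passed the test. In empty vector cells its level was 186, 185 and 174 without and 194, 209 and 189 with TGF-β. With Col1a1-miR-29b it was 172, 165 and 152 without and 188, 175 and 184 with TGF-β. In CMV-miR-29b cells it was 156, 180 and 164 without and 188, 189 and 189 with TGF-β. The log2 differences were 0.12 (SE 0.056, adjusted p = 0.299 by edgeR), 0.16 (adjusted p = 0.153) and 0.18 (adjusted p = 0.0946). With library d of the CMV-miR-29b group without TGF-β left out, the last of these became 0.23 with an adjusted p of 0.0257 by edgeR. Groups that do not overlap were common here: 3 of 5 members in empty vector cells, 2 with Col1a1-miR-29b and 2 in the CMV-miR-29b groups had them, beside 21.0%, 21.9% and 20.9% of all genes tested. Loxl2 lies at chr14:69609068-69695834 on the plus strand.

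Loxl3 and Loxl4 showed no called difference with TGF-β, and their groups overlapped for each vector. In empty vector cells Loxl3 was 6.98, 5.72 and 6.09 without and 5.51, 7.03 and 5.39 with TGF-β, a log2 difference of -0.07 (95% interval -0.30 to 0.16). Loxl4, at 29.6, 28.5 and 30.1 without and 25.9, 30.4 and 26.0 with TGF-β, had a log2 difference of -0.10 (interval -0.24 to 0.04). Library d was the highest of the treated group for both genes. In the miR-29b vectors the log2 differences lay between -0.06 and 0.09 for Loxl3 and between -0.04 and -0.02 for Loxl4. Loxl3 lies at chr6:83034173-83052562 on the plus strand and Loxl4 at chr19:42593982-42612813 on the minus strand.

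The next question was whether either miR-29b vector changed these genes. No member passed the test against the empty vector, with or without TGF-β. For Col1a1-miR-29b, edgeR called 0 of 5 without TGF-β (2 at an unadjusted p under 0.05, and 1 by DESeq2), where 6.27% of all genes were called. With TGF-β it called 0 of 5 (0 unadjusted, 0 by DESeq2), where 12.9% were. For CMV-miR-29b the counts were 0 of 5 both without TGF-β (1 unadjusted, 0 by DESeq2) and with it (1 unadjusted, 0 by DESeq2), but only 0.00473% and 0.00945% of all genes were called, 1 and 2 genes. limma on log2(FPKM + 1) also called 0 of 5 in all of these. The shares above are those of edgeR. DESeq2 called 2398 and 3537 of 33429 genes for Col1a1-miR-29b without and with TGF-β, and 42 and 288 for CMV-miR-29b. limma called 446 and 1623 of 22164 genes for Col1a1-miR-29b, and 1 and 8 for CMV-miR-29b.

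Loxl2, the member with 8-base seed matches, had the values nearest to a fall. Without TGF-β it was at 172, 165 and 152 in Col1a1-miR-29b cells, below all 3 empty vector libraries at 186, 185 and 174. The log2 difference was -0.16 (95% interval -0.28 to -0.04, adjusted p = 0.109 by edgeR). DESeq2 gave -0.17 with an adjusted p of 0.0451. With TGF-β the difference was -0.12 (interval -0.23 to 0.0048, adjusted p = 0.213 by edgeR), and again the groups did not overlap. Groups did not overlap for 2 of 5 members without TGF-β and 1 of 5 with it, beside 29.0% and 30.0% of all genes tested. With CMV-miR-29b, the log2 differences of Loxl2 were -0.12 without TGF-β (interval -0.24 to -0.0047, adjusted p = 0.902 by edgeR) and -0.07 with it (interval -0.19 to 0.05). The lower bounds of these intervals allow a fall of at most 0.28 on the log2 scale for Loxl2 in any of these edgeR comparisons.

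Lox, with 3 matches of 7 bases, was not called with either vector. With Col1a1-miR-29b its log2 difference from the empty vector was 0.03 without TGF-β (interval -0.17 to 0.22) and -0.05 with TGF-β (interval -0.24 to 0.14). With CMV-miR-29b it was 0.13 without TGF-β and 0.27 with it (interval 0.08 to 0.46, adjusted p = 0.275 by edgeR). In the latter comparison all 3 CMV-miR-29b libraries, at 6.65, 6.26 and 5.77, were above the empty vector libraries at 5.19, 4.96 and 5.34. For CMV-miR-29b, groups did not overlap for 1 of 5 members without TGF-β and 2 of 5 with it, beside 10.6% and 15.9% of all genes. The former was Loxl1 (log2 difference 0.12, adjusted p = 0.948 by edgeR), and the latter were Lox and Loxl2.

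Loxl1, which has no match, was at 9.31, 10.0 and 8.81 with Col1a1-miR-29b and no TGF-β, above the empty vector libraries at 8.45, 7.83 and 8.23. The log2 difference of 0.20 had an adjusted p of 0.137 by edgeR, and with TGF-β it was 0.07. Loxl3 differed by 0.02 without TGF-β and 0.19 with it, the latter with an adjusted p of 0.301 by edgeR. Leaving out library d of the empty vector cells with TGF-β, which was high for Loxl3, made this difference 0.31 with an adjusted p of 0.0472. Loxl4, with 1 match, differed by 0.02 and 0.10 (95% interval with TGF-β -0.04 to 0.24).

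The vectors were also compared with each other, CMV-miR-29b against Col1a1-miR-29b. edgeR called 0 of 5 members without TGF-β (0 unadjusted, 0 by DESeq2), where it called 1.81% of genes. With TGF-β it called 0 of 5 (1 unadjusted, 1 by DESeq2), where it called 1.93%. DESeq2 called 1224 of 33429 genes without TGF-β and 1133 with it. The member behind the unadjusted and DESeq2 calls was Lox, which was higher with CMV-miR-29b by 0.32 on the log2 scale (interval 0.13 to 0.51, adjusted p = 0.0816 by edgeR, 0.0161 by DESeq2). Its lowest CMV-miR-29b library, at 5.77, was above the highest Col1a1-miR-29b library, at 5.32. Loxl2, the other gene with at least 2 seed matches, differed by 0.05 in this comparison (interval -0.07 to 0.17). Groups did not overlap for 0 of 5 members without TGF-β and 4 of 5 with it, beside 22.0% and 23.3% of all genes. The 4 moved both ways. Lox and Loxl2 were higher with CMV-miR-29b, while Loxl3 (5.93 to 6.35 against 6.42 to 7.38) and Loxl4 (27.1 to 28.1 against 28.8 to 29.8) were lower. For the responses to TGF-β, compared between each miR-29b vector and the empty vector, edgeR called 0 of 5 members in both contrasts (0 unadjusted, 0 by DESeq2), and 0% of all genes. DESeq2 called 24 of 33429 genes for Col1a1-miR-29b and 21 for CMV-miR-29b.

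**Figure D4:**
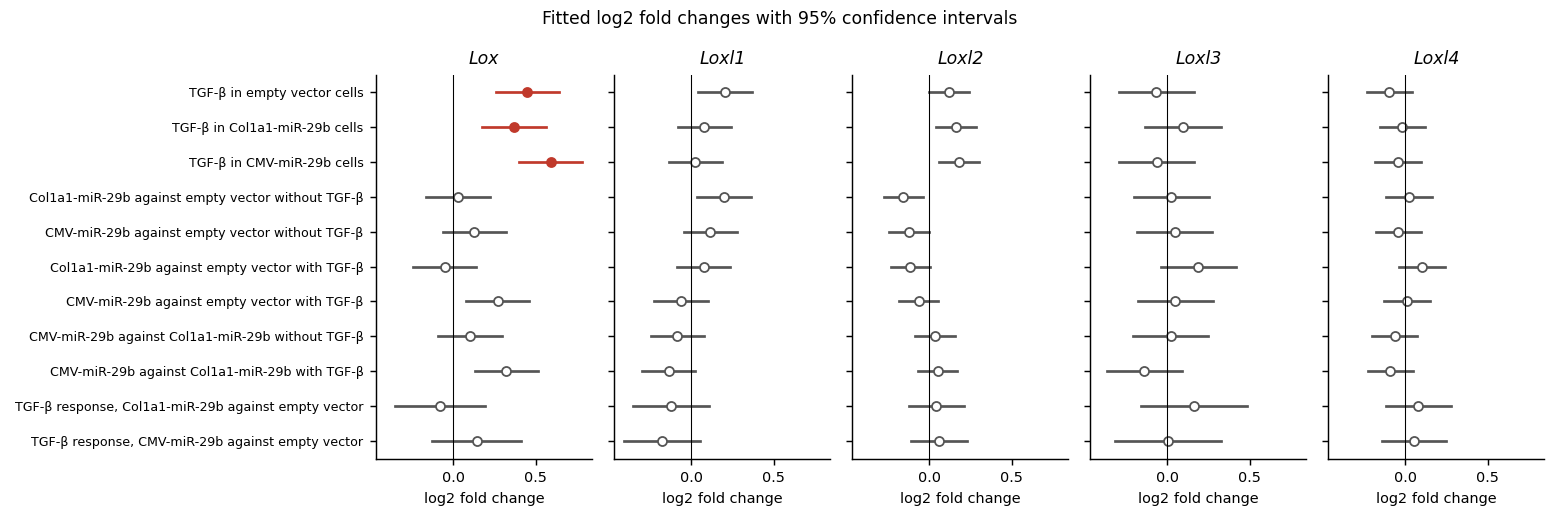
Log2 fold changes of the 5 lysyl oxidase genes in the 11 comparisons, with 95% confidence intervals from the edgeR fit. Filled red points passed an adjusted p of 0.05, and open grey points did not. The 3 filled points are those of Lox with TGF-β, at 0.45, 0.37 and 0.59.

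The genes of the substrates of these enzymes were read beside them. Of 12 collagen and elastin genes, 11 were tested, and 10 of these rose with TGF-β in empty vector cells, with a median log2 change of 0.97 beside 0.00 over all genes tested, of which 5.88% were called. The fibrillar collagen genes Col11a1 (1.97), Col1a2 (1.48), Col5a3 (1.26) and Col1a1 (1.26) rose most, with adjusted p of 6.82e-07, 8.20e-08, 2.21e-09 and 6.81e-08 by edgeR. Col1a1 thus rose 2.39-fold where Lox rose 1.37-fold. Col11a2 was the tested substrate that was not called, and Eln, which encodes elastin, had 0 to 20 counts and was not tested. With Col1a1-miR-29b 10 of 11 rose as well, at a median of 0.81, where 4.32% of all genes were called. With CMV-miR-29b 10 of 11 did, at 0.84, where 4.95% were.

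Against the empty vector, some substrates were lower with Col1a1-miR-29b. Without TGF-β 5 of 11 were, led by Col3a1 (log2 difference -0.59, adjusted p = 0.00751 by edgeR), Col11a1 (-0.55, adjusted p = 0.0443) and Col5a3 (-0.29, adjusted p = 0.0116). With TGF-β 8 of 11 were, led by Col3a1 (-0.87, adjusted p = 0.000449), Col1a2 (-0.63, adjusted p = 0.000986) and Col11a1 (-0.59, adjusted p = 0.0175). Of all genes tested, 6.27% and 12.9% were called in these comparisons. The medians were -0.23 and -0.37, beside 0.02 and 0.02 over all genes. With CMV-miR-29b, edgeR called 0 of 11, at medians of -0.22 without TGF-β and -0.30 with it, but only 0.00473% and 0.00945% of all genes were called there. Col3a1 had a log2 difference of -0.65 in the latter comparison, with an adjusted p of 0.0559. Of the 12 substrate genes, 10 held a seed match in the 3′ UTR and 8 a match of 8 bases, while Col1a2 and Col11a2 held none. Col4a1 and Col2a1 held a match of 8 bases, but neither was called with Col1a1-miR-29b against the empty vector, with or without TGF-β. The mean level of Col4a1 without TGF-β was 12.9 in empty vector cells and 15.6 with Col1a1-miR-29b. Col11a1, which was lower, held 2 matches and 0 of 8 bases. A match was held by 13.1% of all genes with a 3′ UTR. In the lists below, 2 of 14 processing and scaffold genes and 1 of 11 copper genes held one. Of 9 hydroxylation genes 4 did, and of 10 other crosslinking enzymes 0. Of the genes there that were lower with Col1a1-miR-29b, Fbn1 held 2 matches and Fn1, Adamts14, Tgm2 and Mt1 held 0. The part of the matches in these differences was not tested.

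The next list held 14 genes that process the proenzymes or present them to the matrix. Of 13 tested, 4 rose, 1 fell and 8 were not called with TGF-β in empty vector cells (median log2 change 0.21), where 5.88% of all genes were called. Postn, a matricellular protein, rose by 3.59, from 4 counts in its lowest library (adjusted p = 0.00500 by edgeR). Pcolce2, an enhancer of procollagen processing, rose by 1.04 (adjusted p = 6.00e-06), the microfibril gene Fbn1 by 0.96 (adjusted p = 9.36e-08), and Bmp1, the protease that cleaves the Lox proenzyme, by 0.71 (adjusted p = 0.000252). Pcolce, related to Pcolce2, fell by 0.40 on the log2 scale (adjusted p = 0.00213), and is named though it lies outside the rule for named genes. With Col1a1-miR-29b, 3 of 13 were lower without TGF-β: Adamts14, a procollagen protease (log2 difference -0.38, adjusted p = 0.0141), Fn1, which encodes fibronectin (-0.33, adjusted p = 0.0141), and Fbn1 (-0.30, adjusted p = 0.0151). With TGF-β 2 were, Fbn1 (-0.56, adjusted p = 0.000224) and Fn1 (-0.41, adjusted p = 0.00216). With CMV-miR-29b 0 of 13 were called. The shares of all genes called were 6.27% and 12.9% for Col1a1-miR-29b without and with TGF-β, and 0.00473% and 0.00945% for CMV-miR-29b. The medians with Col1a1-miR-29b were -0.17 and -0.14.

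Lysyl oxidases need copper, and hydroxylation of lysine decides which crosslinks form. Of 11 copper genes tested, 1 fell with TGF-β in empty vector cells: Mt1, a metallothionein, by 0.31 on the log2 scale (adjusted p = 0.00498 by edgeR), at a list median of -0.07 and where 5.88% of all genes were called. With Col1a1-miR-29b, the copper chaperone Atox1 was higher by 0.34 without TGF-β (adjusted p = 0.0226) and by 0.39 with it (adjusted p = 0.00511). The transporter-like gene Slc31a2 was higher by 0.24 (adjusted p = 0.0332) and 0.30 (adjusted p = 0.00561). Mt1 was lower by 0.24 without TGF-β (log2 difference -0.24, adjusted p = 0.0343). The other 8 and 9 copper genes were not called, in comparisons where 6.27% and 12.9% of all genes were. Of 8 hydroxylation genes tested, 2 rose with TGF-β in empty vector cells at a median of 0.15: Fkbp10, a collagen chaperone, by 0.29 (adjusted p = 0.000156) and Plod2, the lysyl hydroxylase of collagen telopeptides, by 0.24 (adjusted p = 0.00136). None of the 8 was called by edgeR with Col1a1-miR-29b.

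Enzymes that crosslink or oxidize amines by other routes were mostly low. Of 10, 8 were tested, and Tgm2, a transglutaminase, was the 1 that rose with TGF-β in empty vector cells (log2 0.47, adjusted p = 0.0207 by edgeR; list median -0.02), where 5.88% of all genes were called. Tgm2 was lower with Col1a1-miR-29b, by a log2 difference of -0.42 without TGF-β (adjusted p = 0.0398) and -0.42 with it (adjusted p = 0.0232). The amine oxidase gene Aoc3, at 58 to 243 counts, was higher by 1.14 in the comparison with TGF-β (adjusted p = 0.0333). With CMV-miR-29b, edgeR called 0 genes of the copper, hydroxylation and other crosslinking lists, where 0.00473% of all genes were called without TGF-β and 0.00945% with it.

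**Figure D5:**
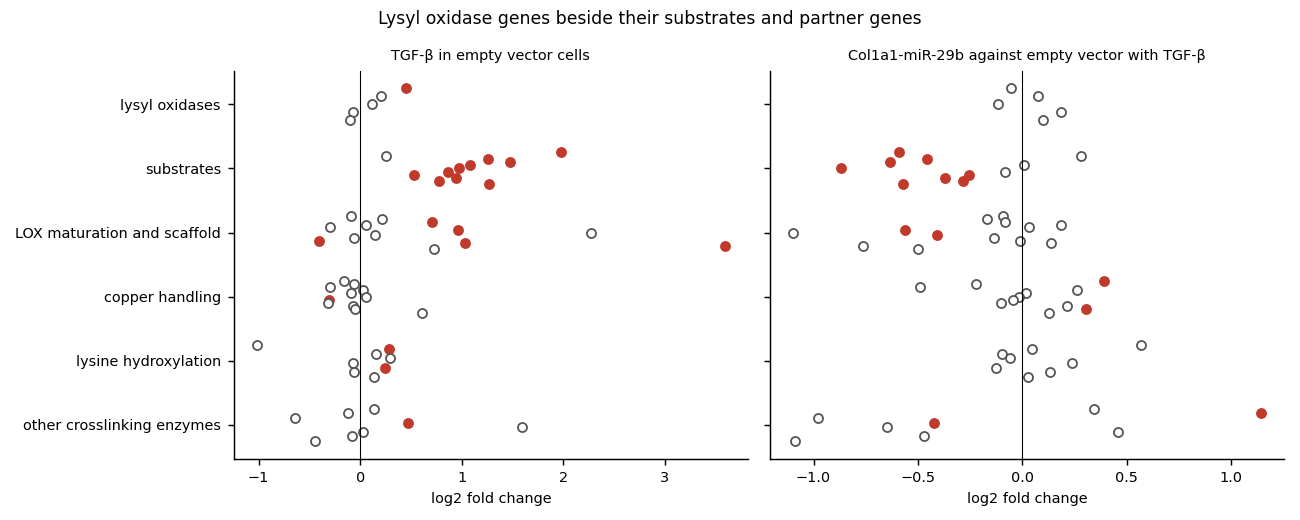
Log2 fold changes of the lysyl oxidase genes and of tested genes in 5 related lists, for TGF-β in empty vector cells (left) and for Col1a1-miR-29b against the empty vector with TGF-β (right). Each point is a gene, filled red where the adjusted p was under 0.05. On the left 10 of 11 substrates and 1 of 5 lysyl oxidases are filled, and on the right 8 of 11 and 0 of 5.

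Some members overlap other genes, and whether the counting used strand is not stated. Exons of Lox share 30 bases with AC161119, an antisense gene, which had 143 to 172 counts in empty vector cells and 193 to 333 with TGF-β. Its log2 difference was 0.84 (adjusted p = 0.0601 by edgeR) there and 1.46 in CMV-miR-29b cells (adjusted p = 0.00190). Exons of Loxl2 share 301 bases with the antisense gene Gm27177, at 61 to 270 counts over all libraries. Those of Loxl3 share 535 bases with Htra2, a mitochondrial protease gene on the other strand, at 1201 to 2137 counts. Without strand, reads from these shared bases cannot be told apart.

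For each member, the genes with the most similar levels over the 18 libraries were listed by Pearson's r of log2 normalised CPM, among 11790 other genes. For Lox these were Frk, a tyrosine kinase (r = 0.897), P4ha3, a subunit of collagen prolyl hydroxylase (0.897), and Crispld2 (0.897), whose log2 changes with TGF-β in empty vector cells were 0.33, 0.89 and 1.37. Loxl2 was most like Kdm5b, a histone demethylase (0.878), Sec23a, a coat protein of secretory vesicles (0.858), and Maged1 (0.853). Loxl1 was most like Cdc20, a regulator of mitosis (0.884), Prpf19 (0.844) and Cyren (0.822). Loxl3 was most like Fbxw8 (0.847), Ece1, an endothelin-converting enzyme (0.844), and Psmd4, a proteasome subunit (0.772), and Loxl4 was most like Tmem184a (0.904), Ercc3 (0.883) and Ppp2r5d (0.848). Between members, r was highest for Loxl3 and Loxl4 (0.610) and for Lox and Loxl2 (0.581), and lowest for Lox and Loxl4 (-0.35). These correlations are descriptions over 18 libraries that share the 6 conditions and the scaling.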

How the data were processed

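RNA of 18 MEF libraries was sequenced by the authors as poly(A) RNA in paired ends. They trimmed reads with cutadapt, checked them with FastQC, mapped them with HISAT2 and assembled transcripts with StringTie. Tool versions and the step that made counts are not given in the sources used here. The deposited counts are whole numbers per gene without normalization. The deposited FPKM, which the authors attribute to DESeq2, hold 1e-04 in place of 0. The labels name mm9, but coordinates of 52543 of 55450 genes equal those of the GENCODE annotation of GRCm38, which was used for lengths and UTRs.

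For the counts, edgeR 4.0.16 was run in R 4.3.3 with its filterByExpr step, TMM scaling and the quasi-likelihood F test (1 mean per group over all 18 libraries, Benjamini-Hochberg adjustment over 21161 genes, threshold 0.05). SEs were computed from F. Levels divide normalised CPM by exonic length. FPKM were tested with limma 3.58.1 on log2 values in 16 libraries. The 2 unlettered columns were matched to their group and not to a sample, so their counts were used and their FPKM, 2 columns, were not. Among counts from 1 to 40, 33.8% to 36.7% per library were multiples of 4, where evenly spread counts would give 25%. Low counts may thus carry more than tallying error, which was not tested. Replicates of a group differed by a chi-square of 40.3 to 64.5 per gene, so no library was a copy. In simulated data for TGF-β in empty vector cells, with 20535 genes of which 200 were changed, the test recovered 70% of 2-fold changes and 20% of smaller ones. The smaller changes were all of a single size, which lay between the lowest and highest fitted rises of Lox with TGF-β. Of the calls in the simulation, 5.26% were false.

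The members and the lists were chosen with earlier results of these data known. Named genes are the 5 members; up to 4 called genes of each list with the largest change with TGF-β in empty vector cells and up to 3 in each comparison of a miR-29b vector with the empty vector, at a mean of at least 1 CPM; and the 3 genes most similar to each member, leaving out predicted gene names (an offset of 0.01 CPM was added). Alternatives were DESeq2 1.42.0, its size factors, total counts, a low-count filter of 1 count anywhere or 10 in every library, groups alone, a replicate block, each library left out, limma with an offset of 1 or 0.1, counts divided by 4, and offsets for length and GC content. A fit without unlettered libraries was added after the data were seen.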

Additional observations from a re-analysis of the deposited data

How the results depend on the processing

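Each of 55 log2 fold changes and 11 counts of called members was recomputed under 32 alternatives. The rise of Lox with TGF-β kept its direction in all of them for each vector. It passed the threshold in all 32 in empty vector cells (log2 0.33 to 0.47, adjusted p 0.000161 to 0.0427) and in CMV-miR-29b cells (0.48 to 0.64, adjusted p 9.13e-08 to 0.0206). In Col1a1-miR-29b cells it passed in 20 of 32 (0.21 to 0.46, adjusted p 0.00357 to 0.290), and the count of called members was 0 with every gene of at least 1 count (adjusted p = 0.0503), 0 with the groups compared alone, 0 with the replicate block (adjusted p = 0.273), 0 with length and GC offsets and the replicate block, 0 with limma on log2(FPKM + 1), on log2(FPKM + 0.1) and on log2(FPKM + 1) without a filter, and 0 without the unlettered libraries. The block and FPKM fits also lack those libraries. All genes called in this comparison were 914 of 21161 in the main fit and 737 of 33471 with every gene of at least 1 count. They were 719 of 19202 with the groups alone, 394 of 21858 with the block and 420 of 21858 with the offsets and the block. limma called 492 and 462 of 22164, and 504 of 33065 without a filter. Without the unlettered libraries 453 of 21858 were called. Leaving out each library in turn gave 0 to 1 called members for TGF-β in Col1a1-miR-29b cells, beside 630 to 959 of all genes. It gave 1 to 2 for TGF-β in CMV-miR-29b cells, beside 724 to 1097 genes (2 without library d of the untreated cells, the second being Loxl2). For Col1a1-miR-29b against the empty vector with TGF-β it gave 0 to 1, beside 1291 to 3182 genes. The 1 was Loxl3, without library d of the empty vector cells with TGF-β, where 3182 genes were called. These fits tested 21926 to 21980 genes. DESeq2 called 1 member for Col1a1-miR-29b against the empty vector without TGF-β (Loxl2) and 1 for CMV-miR-29b against Col1a1-miR-29b with TGF-β (Lox). It called 2398 and 1133 of 33429 genes in these comparisons. The cause of these changes in calls was not tested.

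Directions turned only for values that were not called. With the replicate block, log2 differences became -0.027 for Loxl3 with TGF-β (Col1a1-miR-29b), -0.0064 for Loxl3 between the miR-29b vectors without TGF-β and -0.011 for Loxl2 in the response of Col1a1-miR-29b cells against the empty vector. With length and GC offsets and the block, they were -0.0036 for Loxl1 and -0.051 for Loxl3 with TGF-β (Col1a1-miR-29b), -0.0096 for Loxl4 with Col1a1-miR-29b against the empty vector without TGF-β and -0.00046 for Loxl2 in that response. With limma on log2(FPKM + 1), with or without a filter, they were -0.042 for Loxl3 with TGF-β (Col1a1-miR-29b), -0.019, -0.043 and -0.057 for Lox, Loxl2 and Loxl3 between the miR-29b vectors without TGF-β, and -0.0028 for Loxl2 in that response. With log2(FPKM + 0.1) the same 5 were -0.048, -0.024, -0.044, -0.066 and -0.0028. Without the unlettered libraries they were -0.027 for Loxl3 with TGF-β (Col1a1-miR-29b), -0.0093 and -0.030 for Loxl2 and Loxl3 between the vectors and -0.012 for Loxl2 in that response. Scaling by total counts gave -0.0085 for Loxl3 between the vectors without TGF-β.

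Leaving out single libraries turned the following, given as ranges. For TGF-β these were Loxl3 in empty vector cells (-0.21 to 0.0089), Loxl4 with Col1a1-miR-29b (-0.053 to 0.023), and Loxl1 (-0.018 to 0.079), Loxl3 (-0.12 to 0.011) and Loxl4 (-0.12 to 0.0031) with CMV-miR-29b. For Col1a1-miR-29b against the empty vector without TGF-β they were Lox (-0.075 to 0.12), Loxl3 (-0.046 to 0.10) and Loxl4 (-0.035 to 0.044). For CMV-miR-29b against the empty vector they were Loxl3 (-0.042 to 0.12) and Loxl4 (-0.10 to 0.018) without TGF-β, and Loxl3 (-0.020 to 0.17) and Loxl4 (-0.034 to 0.083) with it. Between the miR-29b vectors without TGF-β they were Loxl2 (-0.020 to 0.080), Loxl3 (-0.056 to 0.078) and Loxl4 (-0.11 to 0.0069). For the response against the empty vector they were Lox (-0.18 to 0.017) and Loxl2 (-0.0069 to 0.098) with Col1a1-miR-29b, and Loxl3 (-0.068 to 0.14) and Loxl4 (-0.0065 to 0.14) with CMV-miR-29b.

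No shift shared by libraries of the same letter was seen. Deviations from group means had correlations of -0.07 to 0.10, mean 0.0063, over 36 pairs of the same letter, and a mean of -0.0031 over pairs of different letters. These values cannot show whether libraries of a letter were made together. Apart from Lox in Col1a1-miR-29b cells, the fit with the replicate block changed no call of a member. That fit also lacks the unlettered libraries, and without them Lox was not called there in the fit without a block either. With 3 libraries a group, changes well under 2-fold were often missed in the simulation. Its changed genes were drawn from all those with a mean above 1 CPM, so the shares recovered are not those of the 5 members.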
